A study of Mus musculus with 4 samples.

Results

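Il10 and 8 further genes linked to regulatory B cells were described over 4 arrays of mouse B lymphocytes. The 9 genes are Il10, Havcr1, Lrrc32, Cd1d1, Cd5, Cd9, Tgfb1, Ebi3 and Il12a, of 22180 genes that the array's annotation names. They were chosen by name, with the values of these 4 arrays already known, so their differences are descriptions and none was tested. A gene was read from its brightest probe set (the array's unit of measurement) among those mapped to exactly 1 symbol, and the 9 genes had 11 such probe sets. All 9 passed the filter on low signals, which 12456 genes passed in all.

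The B cells came from mice on the C57BL/6 background, either Tilcara (Til), a model with mutant PKCbeta, or wild type. PKCbeta is a protein kinase that links the B cell antigen receptor to NF-kB, and Prkcb is its gene. The labels do not say what the Til allele does to the protein. Cell suspensions of spleen, thymus and lymph nodes were sorted for B220 (CD45R), and the 4 groups were stimulated Tilcara, stimulated wild type, non-stimulated Tilcara and non-stimulated wild type. Stimulated cells had 4 hours of the PKC-activating phorbol ester PMA at 10 ng/mL and of the calcium ionophore A23187 at 1 µM. Each group was 1 array, the labels do not give the number of mice behind it, and no difference below has a replicate check.

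Regulatory B cells are B cells that dampen immune responses, chiefly by secreting interleukin-10. No single marker defines them: in mice they have been described by high CD1d together with CD5, by TIM-1 (the product of Havcr1) and by the tetraspanin CD9. Further suppressive factors ascribed to B cells are TGF-beta, which GARP (the product of Lrrc32) holds on the cell surface in latent form, and interleukin-35, a pair of the EBI3 protein and the p35 chain encoded by Il12a. Phorbol ester with a calcium ionophore is a common way to bring out interleukin-10 in cells that are able to make it.

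Signals were RMA values on a log2 scale, on which a difference of 1 is 2-fold. The signal floor, taken as the median value over all probe sets with a gene name, was 3.83, and a fold that rests on a value under it is approximate. Over all probe sets Pearson's r was 0.981 between the stimulated arrays and 0.978 between the non-stimulated arrays, across probe sets that are not independent. Prkcb itself read 7.27 in stimulated Tilcara, 7.28 in stimulated wild type, 9.39 in non-stimulated Tilcara and 9.42 in non-stimulated wild type, which does not check the labels, since they describe a mutant and not a deletion. All 9 B cell identity genes with a probe set of their own lay over the floor in every array, with a median signal of 8.23 in stimulated Tilcara, 7.69 in stimulated wild type, 10.33 in non-stimulated Tilcara and 10.30 in non-stimulated wild type. One of them, Cd79b, a signalling chain of the antigen receptor, was 3.05-fold higher in stimulated Tilcara than in stimulated wild type.

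The promoters of both subunit genes of interleukin-35 are shown because Ebi3 and Il12a responded unlike each other. RefSeq's mouse table (GRCm38.p6) held promoter windows for 6 of the 9 genes, and those of Il10, Lrrc32 and Cd1d1 are not shown. Each line gives the 250 bases before an annotated start, 5′ to 3′, and capitals mark the letters GGG, any 5 bases and CC, on either strand, a loose form of the NF-kB site.
Ebi3, chr17:55952373-55952622, plus strand: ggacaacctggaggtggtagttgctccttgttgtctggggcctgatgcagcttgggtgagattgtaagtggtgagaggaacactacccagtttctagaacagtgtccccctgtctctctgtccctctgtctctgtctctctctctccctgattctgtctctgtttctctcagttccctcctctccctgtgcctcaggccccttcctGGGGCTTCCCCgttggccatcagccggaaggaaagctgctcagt
Il12a first start, chr3:68690394-68690643, plus strand: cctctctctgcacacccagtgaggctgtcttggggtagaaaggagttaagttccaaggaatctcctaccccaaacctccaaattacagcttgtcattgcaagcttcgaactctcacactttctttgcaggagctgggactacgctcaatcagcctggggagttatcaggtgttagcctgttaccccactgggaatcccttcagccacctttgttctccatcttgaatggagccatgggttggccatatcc
Il12a second start, chr3:68691174-68691423, plus strand: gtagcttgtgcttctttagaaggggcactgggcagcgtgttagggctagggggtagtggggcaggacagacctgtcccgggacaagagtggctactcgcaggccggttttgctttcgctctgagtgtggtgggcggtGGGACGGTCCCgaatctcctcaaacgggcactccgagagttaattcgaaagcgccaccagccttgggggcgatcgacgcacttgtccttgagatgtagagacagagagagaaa

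In the Ebi3 window the letters matched at overlapping places between bases −44 and −34 from the start, each on both strands. In the second Il12a window they matched on both strands between bases −113 and −103, and in the first window they did not occur. Such a loose pattern is common: 45.8% of all 32851 promoter windows of this length held it, as did 5 of the 9 windows of these genes, the others being those of Cd5, Cd9 and Tgfb1. The AP-1 letters TGANTCA were in 0 of the 9 windows and in 6.75% of all windows, and the NFAT core letters GGAAA were in the windows of Havcr1, Cd9 and Ebi3 and in 55.6% of all windows. In the Ebi3 window that core lay between bases −15 and −11. Matches were sought on both strands and describe letters only.

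Il10 encodes the anti-inflammatory cytokine that defines regulatory B cell function. Il10 (probe set 17216990) had a log2 signal of 6.14 in stimulated Tilcara, 9.52 in stimulated wild type, 3.90 in non-stimulated Tilcara and 3.31 in non-stimulated wild type. The stimulated wild-type array was far above the other 3, stimulated Tilcara stood between, and both non-stimulated arrays were close to the floor or under it. Stimulation went with a 4.75-fold higher signal in Tilcara and a 74.0-fold higher signal in wild type, or 51.5-fold with the non-stimulated wild-type value raised to the floor. The Tilcara to wild-type difference under stimulation, −3.37, was the lowest of all 12456 genes, and so was the difference between both responses, −3.96. Without stimulation Tilcara was above wild type by 0.59, but by 0.06 once values under the floor were raised to it. These are RNA levels of a sorted population, so fewer cells that express Il10 and less Il10 RNA per cell cannot be told apart.

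**Figure D1:**
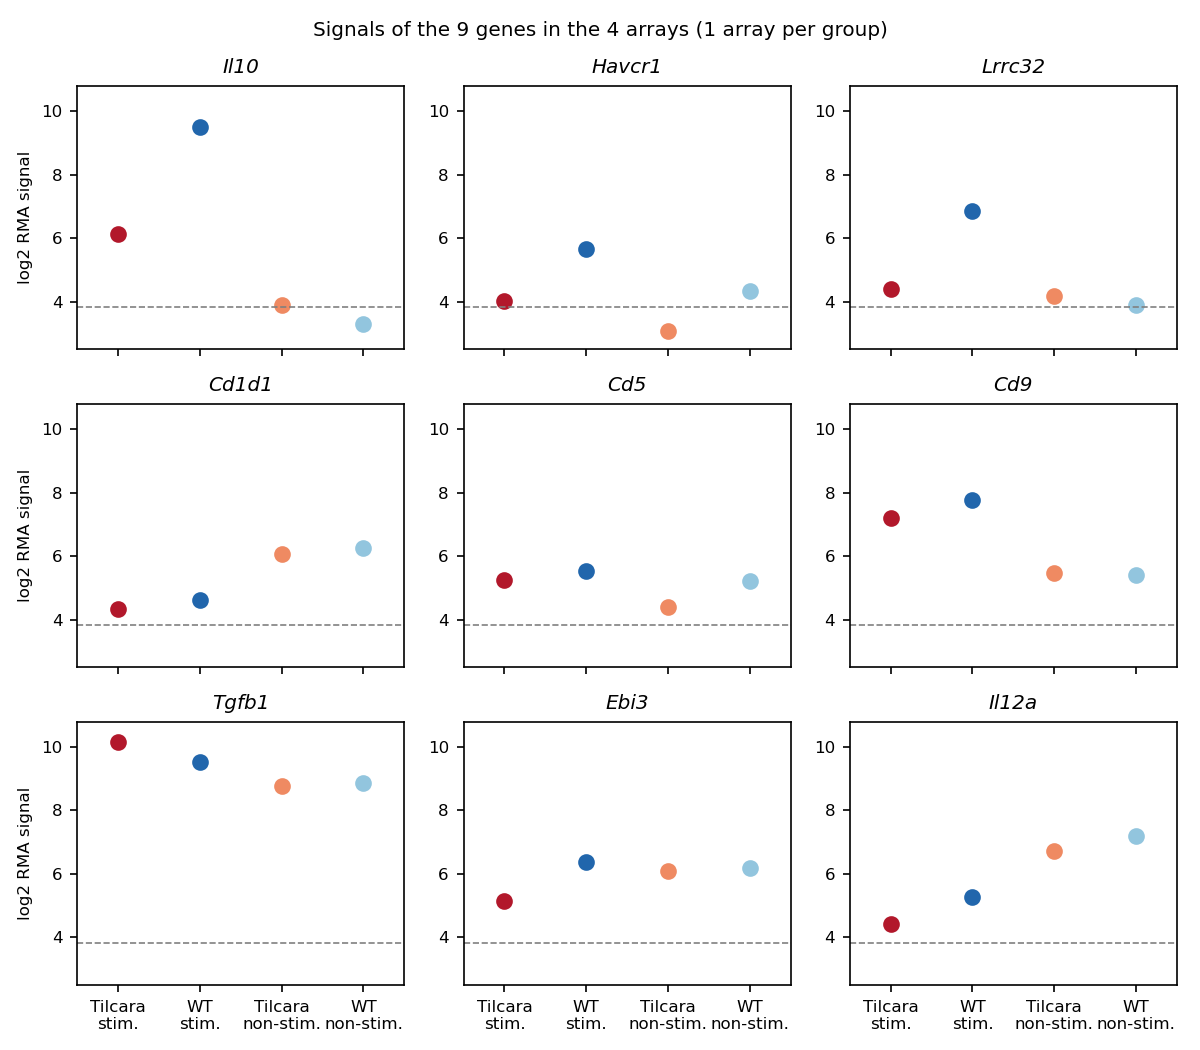
Log2 RMA signal (vertical axis) of each of the 9 genes in the 4 arrays, 1 point per array, with the signal floor of 3.83 as a dashed line. Il10 and Lrrc32 stand highest in stimulated wild type, at 9.52 for Il10 and 6.87 for Lrrc32, while Cd1d1 and Il12a are lower in both stimulated arrays than in both non-stimulated arrays.

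Lrrc32, the gene of the TGF-beta anchor GARP, had a similar profile at lower signals. Lrrc32 (probe set 17480485) read 4.41 in stimulated Tilcara, 6.87 in stimulated wild type, 4.19 in non-stimulated Tilcara and 3.91 in non-stimulated wild type. Only the stimulated wild-type array stood clear of the floor, and the other 3 lay a little above it. The signal with stimulation was 1.16-fold that without it in Tilcara and 7.74-fold in wild type. Under stimulation Tilcara was 5.51-fold below wild type, the sixth lowest difference of all genes used.

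Tgfb1, the cytokine that GARP anchors, went the other way. Tgfb1 (probe set 17475342) read 10.16 in stimulated Tilcara, 9.52 in stimulated wild type, 8.78 in non-stimulated Tilcara and 8.87 in non-stimulated wild type. It was high in all 4 arrays and highest in stimulated Tilcara, where it was 2.59-fold above its non-stimulated level, against 1.58-fold in wild type. It was the only one of the 9 genes that read higher in stimulated Tilcara than in stimulated wild type, by 0.64 or 1.55-fold, which is short of 2-fold.

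Both subunits of interleukin-35 were lower in stimulated Tilcara than in any other array, but their responses to stimulation differed. Ebi3 (probe set 17346074) read 5.14 in stimulated Tilcara, 6.37 in stimulated wild type, 6.08 in non-stimulated Tilcara and 6.18 in non-stimulated wild type. Stimulated Tilcara alone stood apart, 2.33-fold below stimulated wild type, and the other 3 arrays lay close together. A second Ebi3 probe set (17338642) read 4.27 in stimulated Tilcara, 6.97 in stimulated wild type, 5.99 in non-stimulated Tilcara and 6.34 in non-stimulated wild type. It gave a larger genotype difference under stimulation, 6.48-fold, so the probe sets shared the direction and not the size. Il12a (probe set 17398218) read 4.42 in stimulated Tilcara, 5.27 in stimulated wild type, 6.73 in non-stimulated Tilcara and 7.20 in non-stimulated wild type. Il12a was lower with stimulation in both genotypes, 4.96-fold in Tilcara and 3.81-fold in wild type, and Tilcara was below wild type by less than 2-fold in both states.

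Havcr1 was the one gene of the 9 with a 2-fold genotype difference in both states. Its product, TIM-1, is a surface protein found on many of the B cells that make interleukin-10. Havcr1 (probe set 17248847) read 4.04 in stimulated Tilcara, 5.65 in stimulated wild type, 3.07 in non-stimulated Tilcara and 4.35 in non-stimulated wild type. Tilcara was 3.05-fold below wild type with stimulation and 2.43-fold below it without, and each genotype had a higher signal when stimulated, by 1.96-fold in Tilcara and 2.46-fold in wild type. The non-stimulated Tilcara value lay under the floor, and raising it to the floor left a 1.43-fold difference without stimulation and a 1.16-fold response in Tilcara. The difference between both responses was −0.33, against −3.96 for Il10 and −2.74 for Lrrc32. With values under the floor raised to it, that difference was −1.09 for Havcr1, −3.44 for Il10 and −2.74 for Lrrc32.

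The remaining surface markers differed less by genotype. Cd9 (probe set 17471127) read 7.19 in stimulated Tilcara, 7.77 in stimulated wild type, 5.48 in non-stimulated Tilcara and 5.39 in non-stimulated wild type, and was higher with stimulation in both genotypes, 3.28-fold in Tilcara and 5.20-fold in wild type. The second Cd9 probe set (17463201) was dimmer and gave responses of 1.20-fold in Tilcara and 1.81-fold in wild type, so the size of the Cd9 response depended on the probe set. Cd1d1, which encodes the CD1d molecule that presents lipids to NKT cells, read 4.35 in stimulated Tilcara, 4.62 in stimulated wild type, 6.08 in non-stimulated Tilcara and 6.26 in non-stimulated wild type. Its signal was lower with stimulation in both genotypes, 3.32-fold in Tilcara and 3.11-fold in wild type, and the genotypes differed by −0.27 with stimulation and by −0.18 without it. Cd5, a scavenger receptor family member that restrains antigen receptor signalling, read 5.25 in stimulated Tilcara, 5.52 in stimulated wild type, 4.41 in non-stimulated Tilcara and 5.22 in non-stimulated wild type. For Cd5 the non-stimulated Tilcara array was the one that stood low, 1.76-fold below wild type, and the genotypes were 1.20-fold apart under stimulation. T cells carry CD5 as well. Without stimulation, 2 of 10 T cell genes used were at least 2-fold lower in Tilcara, against 0.658% of all genes. These were Thy1 (−1.86) and Cd3g (−1.16), both under the floor in non-stimulated Tilcara, so their sizes are approximate. Over the T cell genes used the median was −0.46, while Cd28 (0.23) and Bcl11b (0.20) were higher in Tilcara. Cd3g, Cd3e, Cd4 and Cd8b1 passed the filter on low signals through non-stimulated wild type alone. They were therefore bound to read lower in non-stimulated Tilcara, and nothing is read from this count or median. The part of T cells in the Cd5 and Havcr1 differences was not tested.

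**Figure D2:**
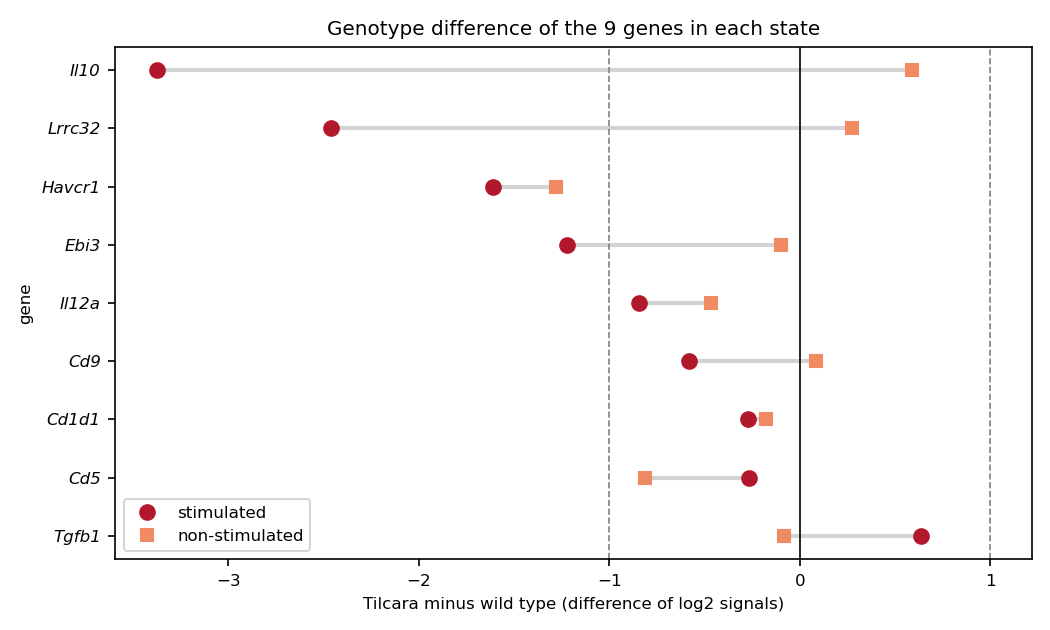
Tilcara minus wild type for each of the 9 genes, as a difference of log2 signals, under stimulation (circles) and without it (squares), with dashed lines at 2-fold. Il10 lies at −3.37 and Lrrc32 at −2.46 under stimulation, both a little above 0 without it, while both points of Havcr1 lie below −1.

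Counted together, 4 of the 9 genes (Il10, Lrrc32, Havcr1 and Ebi3) were at least 2-fold lower in stimulated Tilcara than in stimulated wild type and 0 were at least 2-fold higher. Among all genes used, 0.747% were at least 2-fold lower and 0.955% at least 2-fold higher in that comparison. Since the genes were picked with these values known, nothing is read from the excess. The median difference was −0.84 over the 9 genes and 0.01 over all genes used. Without stimulation 1 of the 9, Havcr1, was at least 2-fold lower in Tilcara, against 0.658% of all genes, and 0 were at least 2-fold higher, against 0.425%. The medians of that comparison were −0.10 over the 9 genes and 0.02 over all genes.

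**Figure D3:**
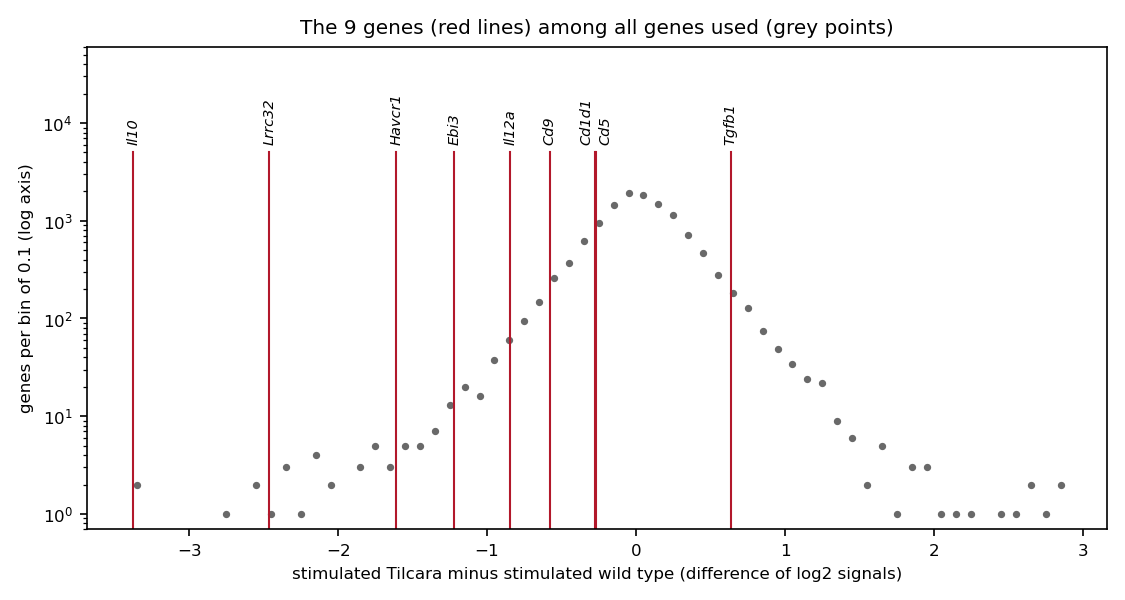
Number of genes used per bin of 0.1 (grey points, log axis) by the difference of log2 signals between stimulated Tilcara and stimulated wild type, with red lines at the 9 genes. Il10 and Lrrc32 lie in the sparse low tail, Il10 at −3.37 and Lrrc32 at −2.46, and Tgfb1 alone lies above 0, at 0.64.

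With stimulation, 3 of the 9 genes in Tilcara (Il10, Cd9 and Tgfb1) and 4 in wild type (Il10, Cd9, Lrrc32 and Havcr1) were at least 2-fold higher, against 11.9% of all genes in Tilcara and 13.4% in wild type. Cd1d1 and Il12a were at least 2-fold lower in both genotypes, where 14.3% of all genes in Tilcara and 15.9% in wild type were. Il10, Lrrc32 and Ebi3 had a response at least 2-fold smaller in Tilcara than in wild type, counted with sign, against 1.65% of all genes, and 0 of the 9 had one at least 2-fold larger, against 2.32%. With values under the floor raised to it, Havcr1 also had such a smaller response, at −1.09, as did 138 of all 12456 genes. These comparisons reuse the same 4 arrays and are not independent of each other.

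**Figure D4:**
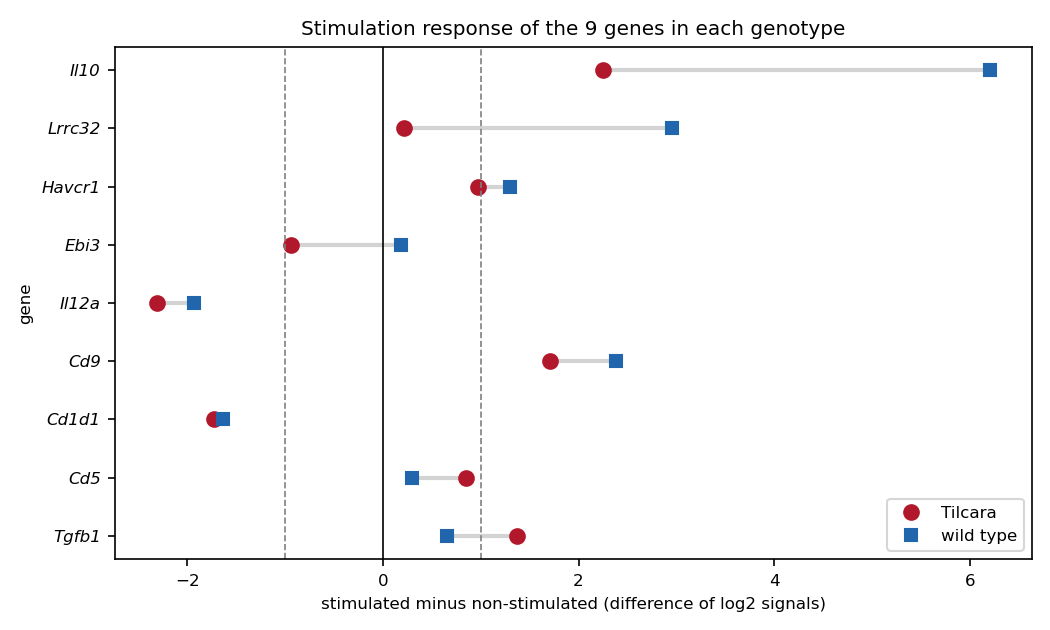
Stimulated minus non-stimulated for each of the 9 genes, as a difference of log2 signals, in Tilcara (circles) and wild type (squares), with dashed lines at 2-fold. The genotypes lie far apart for Il10 (2.25 in Tilcara and 6.21 in wild type) and Lrrc32 (0.22 in Tilcara and 2.95 in wild type), and nearly coincide for Cd1d1.

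Transcription factors that act at Il10 in lymphocytes were set beside it. Of 24 listed, 22 were used, and under stimulation 2 were at least 2-fold lower in Tilcara than in wild type, against 0.747% of all genes, 0 were higher, against 0.955%, and the median was −0.15. This list and those below were also chosen with results known, and nothing is read from their excess over all genes. Those 2 were Batf, an AP-1 family factor that binds with IRF4 (6.94 in stimulated Tilcara, 9.72 in stimulated wild type, 5.63 in non-stimulated Tilcara and 5.89 in non-stimulated wild type), and Zbtb32, a repressor of the BTB zinc finger family (6.36 in stimulated Tilcara, 7.56 in stimulated wild type, 4.27 in non-stimulated Tilcara and 4.45 in non-stimulated wild type). Irf4 itself, at 10.28 in stimulated Tilcara and 10.53 in stimulated wild type, differed by −0.25, and it was higher with stimulation by 2.07 in Tilcara and 2.10 in wild type. Nfil3 (0.05), Prdm1 (0.39), Maf (0.30), Ahr (−0.31) and Egr2 (0.46) also lay within 2-fold between the stimulated arrays. Between the non-stimulated arrays 1 of the 22, Ahr, was at least 2-fold lower in Tilcara (4.10 in Tilcara and 5.17 in wild type), against 0.658% of all genes. Ahr, a receptor for aryl hydrocarbons, had the largest response of the list in both genotypes, 5.02 in Tilcara and 4.25 in wild type, and Ets1 was lower with stimulation by 3.79 in Tilcara and by 3.45 in wild type.

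The genes whose profile over the 4 arrays was closest to that of Il10, by Euclidean distance between log2 values centred on each gene's own mean, were Grhl1 (1.70), Il2 (1.73), Cish (1.73), Ifi202b (1.73), Batf (1.81), Vegfa (1.84), Mt2 (1.90) and Cxcl10 (1.94). With values under the floor raised to it, 7 of these 8 were again among the nearest 8, with Il2 first, and Grhl1 ranked 22. Among the other 8 genes linked to regulatory B cells, Lrrc32 came nearest to Il10, at rank 107 of 11508 genes, followed by Cd9 at 186, and Il12a was the farthest, at 10835. Distances over 4 arrays describe these arrays only.

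Interleukin-10 signals through a receptor of 2 chains to STAT3, whose target Socs3 feeds back on cytokine signalling. Il10ra, for the ligand-binding chain, read 4.34 in stimulated Tilcara, 3.52 in stimulated wild type, 8.18 in non-stimulated Tilcara and 8.49 in non-stimulated wild type. Its signal was lower with stimulation by 3.84 in Tilcara and by 4.97 in wild type. Il10rb, the shared chain, read 5.71 in stimulated Tilcara, 6.65 in stimulated wild type, 7.42 in non-stimulated Tilcara and 7.49 in non-stimulated wild type. Socs3 read 6.27 in stimulated Tilcara, 8.0 in stimulated wild type, 5.49 in non-stimulated Tilcara and 4.91 in non-stimulated wild type, a difference of −1.73 under stimulation. Socs3 was the only one of the 8 measured genes of this list that differed at least 2-fold between the stimulated arrays, against 1.7% of all genes. The list's median was −0.43, against 0.01 over all genes.

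The neighbours of Il10 on chromosome 1 had other profiles. Of the 3 protein-coding genes on either side (Il24, Il20 and Il19, and Mapkapk2, Dyrk3 and Eif2d), 4 were over the floor, and between the stimulated arrays they differed by −0.13 to 0.48. Il19 and Il20, cytokines of the same family, stayed under the floor in all 4 arrays, and Il24 read 4.64 in stimulated Tilcara and 4.24 in stimulated wild type. Beside Lrrc32, the 4 neighbours that passed the filter on low signals differed by −0.29 to −0.06 between the stimulated arrays. Beside Havcr1, the other TIM genes Timd2 and Timd4 stayed under the floor, as did Havcr2, so Havcr1 was the only TIM gene of the 4 listed with a signal over it. The gene order is that of RefSeq's table.

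**Figure D5:**
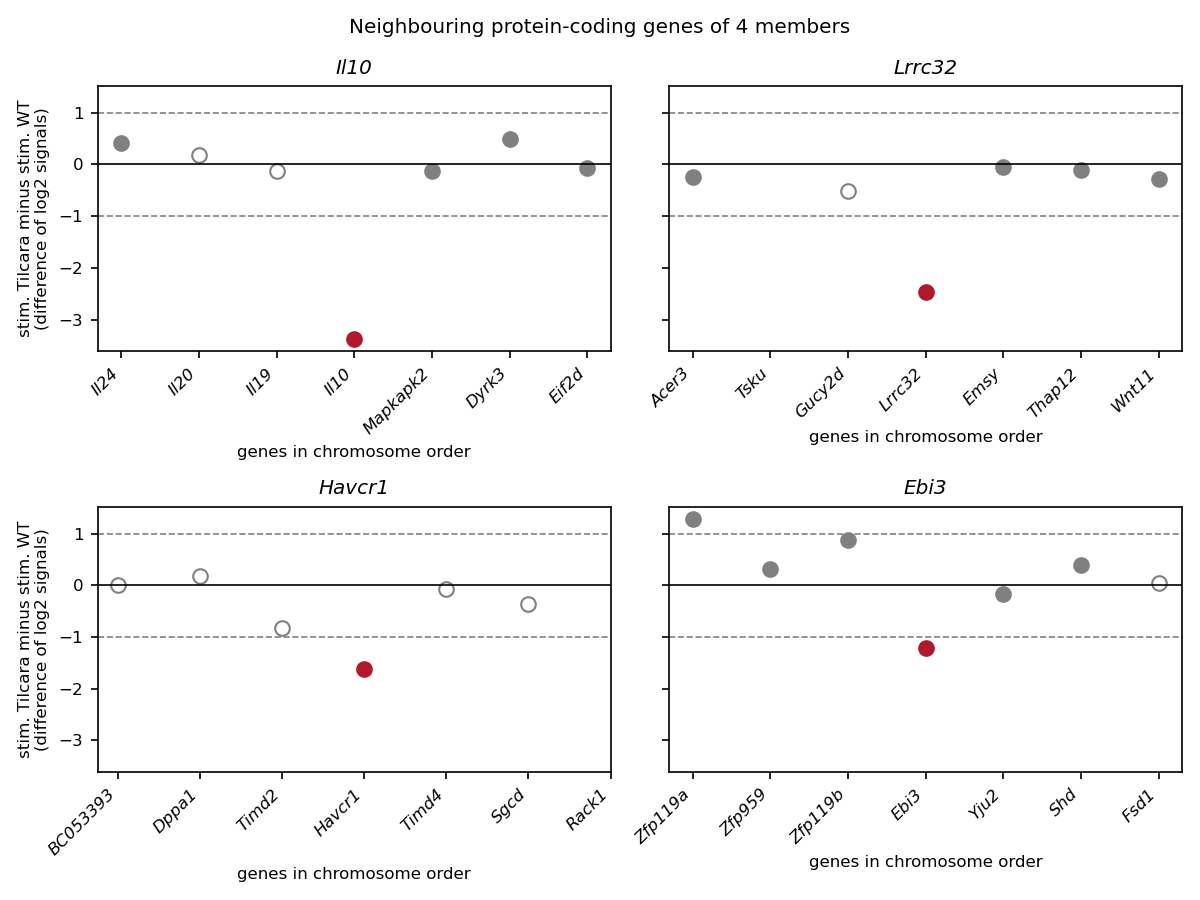
Stimulated Tilcara minus stimulated wild type, as a difference of log2 signals, for Il10, Lrrc32, Havcr1 and Ebi3 (red) and the 3 protein-coding genes on either side in chromosome order (grey; open where the gene stayed under the filter on low signals, and no point without a probe set of its own). Beside Il10, Lrrc32 and Havcr1 no neighbour reaches 2-fold, and beside Ebi3 Zfp119a is higher by 1.28.

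In the TGF-beta pathway beyond Tgfb1 and Lrrc32, 1 gene stood apart between the genotypes. Of 19 listed genes 13 were used, and under stimulation Furin was at least 2-fold lower in Tilcara, against 0.747% of all genes, and 0 were higher, with a list median of −0.19. Furin, a protease that cuts the TGF-beta precursor, read 6.14 in stimulated Tilcara, 7.34 in stimulated wild type, 5.36 in non-stimulated Tilcara and 5.33 in non-stimulated wild type. Itgav, the integrin chain that takes part in releasing TGF-beta from its latent complex, was higher with stimulation in both genotypes, by 3.57 in Tilcara and 3.06 in wild type. Itgb8, its partner chain on cells that activate TGF-beta, stayed under the floor. Nrros, a relative of Lrrc32 that anchors latent TGF-beta on myeloid cells, was lower with stimulation by 2.46 in Tilcara and by 2.12 in wild type. Smad3, which carries the TGF-beta signal to the nucleus, was higher by 2.25 in Tilcara and 2.79 in wild type.

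Ebi3 and Il12a each have other partners. Il27, whose p28 product joins EBI3 to form interleukin-27, read 5.27 in stimulated Tilcara, 5.49 in stimulated wild type, 4.82 in non-stimulated Tilcara and 4.95 in non-stimulated wild type. Il12b, whose p40 product joins p35 to form interleukin-12, read 3.0 to 3.32 in the 4 arrays and Il23a 2.97 to 3.36, all under the floor. Of 10 listed genes of the interleukin-12 family and its receptors 6 were used, and 1 of them, Clcf1, was at least 2-fold lower in stimulated Tilcara, by 1.19, against 0.747% of all genes. Il27ra was lower with stimulation in both genotypes, by 1.83 in Tilcara and by 1.97 in wild type, and Il6st, a receptor chain that many such cytokines share, was higher by 1.96 in each.

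Other surface molecules and effectors ascribed to regulatory B cells gave 4 genes at least 2-fold lower in stimulated Tilcara and 0 higher, of 22 used and 30 listed, with a median of −0.26. Of all genes used, 0.747% were lower and 0.955% higher by that measure. The 4 were Cd274, for the inhibitory ligand PD-L1 (7.96 in stimulated Tilcara and 9.36 in stimulated wild type), Cd40, a costimulatory receptor (6.02 in stimulated Tilcara and 7.24 in stimulated wild type), Siglecg, an inhibitory sialic acid receptor (5.37 in stimulated Tilcara and 6.50 in stimulated wild type), and Pdcd1lg2, for PD-L2 (4.90 in stimulated Tilcara and 5.97 in stimulated wild type). None of the 22 differed 2-fold between the non-stimulated arrays, against 1.08% of all genes. Stimulation went with lower signals of Fcgr2b, the inhibitory Fc receptor (−2.93 in Tilcara and −3.55 in wild type), and of Fcer2a, for CD23 (−3.40 in Tilcara and −2.95 in wild type). Cd1d2, the close copy of Cd1d1, stayed under the floor at 1.46 to 1.97, and how far the probes of either gene also match the other was not tested.

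Cytokines of effector type were listed for comparison. Of 11 used among 17 listed, 5 were at least 2-fold lower in stimulated Tilcara, against 0.747% of all genes, 0 were higher, and the median was −0.58. They were Il2 (6.47 in stimulated Tilcara and 9.78 in stimulated wild type), Il1a (2.40 in stimulated Tilcara and 4.91 in stimulated wild type), Il17a (2.82 in stimulated Tilcara and 5.18 in stimulated wild type), Tnf (8.72 in stimulated Tilcara and 10.18 in stimulated wild type) and Il13 (3.69 in stimulated Tilcara and 5.15 in stimulated wild type). Il1a and Il17a passed the filter on low signals through the stimulated wild-type array alone, so they were bound to differ and add nothing to the count. Il13 passed it through the wild-type arrays alone and lay under the floor in stimulated Tilcara, so nothing is read from its difference either. Ccl3, Ccl4 and Ifng, which also had high signals with stimulation, differed by −0.15 (Ccl3), −0.34 (Ccl4) and 0.15 (Ifng).

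Other cells that can express Il10 or Lrrc32 were looked for by their markers. Of 12 listed T cell genes 11 were measured, and their summed linear signal was 132 in stimulated Tilcara, 179 in stimulated wild type, 157 in non-stimulated Tilcara and 246 in non-stimulated wild type. Cd3e, a defining T cell gene, read 3.54 in both stimulated arrays, 3.60 in non-stimulated Tilcara and 3.99 in non-stimulated wild type. Only the last of these was over the floor. Thy1 was 3.84 in stimulated Tilcara, 5.01 in stimulated wild type, 3.54 in non-stimulated Tilcara and 5.40 in non-stimulated wild type. All 9 listed genes of regulatory T cells, which carry GARP when activated, were measured, and their sum was 1854 in stimulated Tilcara, 1969 in stimulated wild type, 307 in non-stimulated Tilcara and 322 in non-stimulated wild type. Most of the stimulated sums came from Il2ra, an interleukin-2 receptor chain that activated lymphocytes of several kinds carry, at log2 signals of 10.58 in stimulated Tilcara and 10.68 in stimulated wild type. Without Il2ra the sums were 319 in stimulated Tilcara, 324 in stimulated wild type, 282 in non-stimulated Tilcara and 299 in non-stimulated wild type. Foxp3, their defining factor, read 4.24 in stimulated Tilcara, 4.79 in stimulated wild type, 3.93 in non-stimulated Tilcara and 4.44 in non-stimulated wild type, lower in Tilcara in both states, and Ctla4, over the floor in stimulated wild type alone, differed by −1.23 under stimulation.

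Myeloid and natural killer cell markers were compared in the same way. The 10 macrophage and monocyte genes summed to 273 in stimulated Tilcara and 238 in stimulated wild type, with Adgre1 under the floor in both. Without Cd68, the brightest of them, the sums were 99.6 in stimulated Tilcara and 103 in stimulated wild type. In the non-stimulated arrays all 10 summed to 165 in Tilcara and 260 in wild type. The 10 neutrophil genes summed to 76.0 in stimulated Tilcara and 90.1 in stimulated wild type, with Ly6g under the floor, although without stimulation they summed to 99.2 in Tilcara and 809 in wild type. The 9 measured dendritic cell genes summed to 315 in stimulated Tilcara and 328 in stimulated wild type, or without Bst2 to 152.2 in Tilcara and 190.5 in wild type. In the non-stimulated arrays all 9 summed to 453 in Tilcara and 307 in wild type. Of the 7 used, only Klk1 was at least 2-fold apart there, against 1.08% of all genes. Klk1 read 6.41 in non-stimulated Tilcara and 2.75 in non-stimulated wild type, and passed the filter on low signals through non-stimulated Tilcara alone. The 10 natural killer cell genes summed to 340 in stimulated Tilcara and 421 in stimulated wild type, or without Ccl5 to 128 in Tilcara and 137 in wild type. In the non-stimulated arrays all 10 summed to 780 in Tilcara and 719 in wild type. Siglech and Ncr1 lay under the floor in both stimulated arrays and over it in both non-stimulated arrays. Without stimulation Siglech read 5.06 in Tilcara and 4.93 in wild type, and Ncr1 read 4.47 in Tilcara and 4.64 in wild type. The part of these cells in the differences of Il10, Lrrc32 and Havcr1 was not tested.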

How the data were processed

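Gene expression was measured in 4 samples of B lymphocytes, 1 Affymetrix array each, grouped by their titles. The authors deposited log2 signals of 41345 probe sets and, per the submitters' processing notes, used RMA. No version or setting is given in the sources used here. RMA equalises the distributions of arrays, so a change of total RNA per cell cannot be seen. The platform's annotation gave 1 symbol to 23521 probe sets, several to 1814 and none to 16010, and 23328 of the first had a gene ID in RefSeq's table (GRCm38.p6). The probe set with the highest mean stood for a gene, and genes whose highest value reached 3.83 were kept. Differences of log2 values were computed in Python 3.11.15 with pandas 2.3.3 and counted at 1 or more in size. The same code recovered known differences in simulated data. With 1 array per group nothing was tested.

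The 9 genes, 16 further gene lists and the motifs were chosen with earlier results of these data known. Text names the 9 genes, listed partners and defining markers. The plan was to add from each list up to 4 genes with the largest difference of at least 1 between the stimulated arrays. The same was planned for the difference with stimulation in wild type. Not all of these are named, and Ltb, Socs1 and Myo1d are among those left out. Other named genes were chosen after their values were seen. Alternatives were centring of arrays, cyclic loess (limma 3.58.1 in R 4.3.3), the mean over probe sets, values raised to the floor, no filter, a filter at the 75th percentile (5.85) and other fold thresholds. The number of arrays limits the precision.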

Additional observations from a re-analysis of the deposited data

Results flagged for a closer look

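Il10, Lrrc32, Cd9 and Tgfb1 had a genotype difference of opposite sign in the stimulated and non-stimulated arrays. How many of all genes did so was not counted, so nothing is read from their number. Tilcara minus wild type under stimulation, less the same without stimulation, was −3.96 for Il10, −2.74 for Lrrc32, −0.67 for Cd9 and 0.72 for Tgfb1 on the log2 scale. The Ebi3 signal was lower with stimulation in Tilcara and slightly higher in wild type, and its response differed by −1.12. With 1 array per group, none of these differences between groups was tested. For Il10, Lrrc32, Cd9 and Tgfb1 the non-stimulated difference was 0.59 or less in size. That of Cd9 was 0.09, that of Tgfb1 was −0.08, and that of Il10 was 0.06 with values raised to the floor.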

How the results depend on the processing

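No paired analysis was possible because each group held 1 array, and no replicate could be left out. A difference of a gene was taken as moved where its fold moved by 1.5 times or more: 0 of 45 differences moved under centring of arrays, 0 under cyclic loess, 4 under the mean over probe sets (Ebi3 and Cd9) and 3 with values raised to the floor (Havcr1). None of these reversed. The other probe set of Ebi3 and Cd9, an alternative chosen after seeing the data, moved 5 of 10. The stricter filter dropped Cd5 and Havcr1. Genes lower in non-stimulated Tilcara numbered 0, in place of 1, with values raised to the floor and with the stricter filter. Under that filter, genes at least 2-fold apart numbered 138 of all genes used in place of 212 between the stimulated arrays, 53 in place of 135 between the non-stimulated arrays and 231 in place of 495 for the difference between responses; raising values to the floor gave 80 between the non-stimulated arrays. At 0.58, 6 of the 9 genes were lower and 1 was higher in stimulated Tilcara than in stimulated wild type. Without stimulation 2 were lower and 1 was higher in Tilcara. With stimulation 5 were higher and 3 lower in Tilcara, and 4 had a smaller and 1 a larger response in Tilcara, counted with sign. At a difference of 2, 2 were lower in stimulated Tilcara, 0 in non-stimulated Tilcara, 1 was higher and 1 lower with stimulation in Tilcara, and 0 were lower with stimulation in wild type. The shares of all genes at 0.58 and at 2 were not computed, so nothing is read from these counts.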

Other observations

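Genes of B-1 cells, a subset in which CD5 is common and interleukin-10 production is known, were listed beside Cd5. All 12 were used, and without stimulation 2 were at least 2-fold lower in Tilcara (Atxn1, by 1.09, and Ptpn22, a phosphatase, by 1.08), 0 were higher, and the median was −0.47, where 0.658% of all genes were lower by as much. In that comparison the medians were −0.46 for T cell genes, −0.57 for macrophage and monocyte genes and −0.45 for neutrophil genes, and their part in the B-1 list was not tested. Several genes of each of these other lists passed the filter on low signals through non-stimulated wild type alone. Among them were Cd3e and Cd3g, Adgre1, Lyz2 and Fcgr1, and S100a8, Elane and Cxcr2. Such genes were bound to read lower in non-stimulated Tilcara, so nothing is read from these medians. Under stimulation 3 were at least 2-fold lower in Tilcara (Plscr1, Ctla4 and Zbtb32), against 0.747% of all genes, with a median of −0.45, and Ctla4 passed the filter on low signals through stimulated wild type alone. Tbx21, for the factor T-bet, was higher with stimulation by 3.92 in Tilcara and 3.76 in wild type.

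Among the neighbours of the 9 genes, 28 of 54 passed the filter on low signals, which asks for 1 array at the floor or above. Between the stimulated arrays 1 was at least 2-fold lower in Tilcara, against 0.747% of all genes, and 1 was higher, against 0.955%. The lower one was Slc15a3, a histidine and peptide transporter near Cd5 on chromosome 19, which read 7.09 in stimulated Tilcara, 9.10 in stimulated wild type, 6.15 in non-stimulated Tilcara and 5.92 in non-stimulated wild type. Zfp119a, near Ebi3, read 5.54 in stimulated Tilcara and 4.26 in stimulated wild type.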
